A study of Mus musculus with 4 samples.

Results

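The genes described here are the macrophage, antigen presentation and cytokine genes of the adult mouse testis. They were chosen by their names among the transcripts the authors called different, with earlier results of these data known. The names cover colony-stimulating factors and macrophage genes, H2 antigen presentation genes, complement, Cd surface antigens, chemokines, interleukins, the TNF family, Toll-like receptors, and interferon and Stat genes. This set held 141 transcripts of 98 genes, out of 11304 transcripts of 7452 genes in the authors' deposited table of transcripts called different between the genotypes. All samples were the left testis of C57BL/6 mice at postnatal day 56. The control group (WT, n = 2 libraries) is labelled wild type, and the other (cKO, n = 2 libraries) is labelled Ppp2ca-cKO with the genotype Ppp2ca-/-. Ppp2ca encodes a catalytic subunit of the protein phosphatase PP2A, and the study asks what this subunit does as male germ cells enter meiosis. The labels do not name the Cre driver of the deletion, and no transcript of Ppp2ca was among those listed, so the genotype labels were taken as given.

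The testis holds a resident macrophage population in the interstitium, beside the steroid-producing Leydig cells, that depends on signalling through the receptor Csf1r. Developing germ cells sit behind the Sertoli cell barrier and carry antigens the immune system has not been tolerised to, and the organ is known as a site where immune responses are dampened. Several genes named for their part in immunity also have transcripts in male germ cells, among them the complement regulator Cd46, which in the mouse is found mainly on the sperm acrosome, and Stat4, which has been described in mouse haploid germ cells.

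The promoters of 83 of the 98 genes were found in RefSeq (GRCm38.p6). The windows shown are 250 bases long and end at an annotated start. They were picked as examples in which a listed transcript begins there and at least 1 motif was found. Of 59 windows at which a listed transcript begins, 26 held none of the motifs, among them those of Lyz2, Csf1 and Cxcl12. These 2 counts leave out 1 chromosome, which the gene shares below include. The windows printed are 2 for Stat4, whose pair of abundant transcripts fell, and 1 each for H2-T22, Tlr13 and Ptprc, which had higher counts in the cKO. Capitals mark matches to GAGGAA (a core of sites for the macrophage factor PU.1), GAAANNGAAA (the core of the interferon-stimulated response element) and CCAAT, on either strand.
Stat4, upstream start, chr1:51986898-51987147, plus strand: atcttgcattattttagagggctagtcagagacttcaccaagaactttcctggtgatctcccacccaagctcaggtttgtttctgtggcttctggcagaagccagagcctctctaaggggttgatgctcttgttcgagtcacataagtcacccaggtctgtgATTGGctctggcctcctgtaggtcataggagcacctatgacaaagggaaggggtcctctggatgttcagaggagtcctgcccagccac
Stat4, internal start, chr1:52007990-52008239, plus strand: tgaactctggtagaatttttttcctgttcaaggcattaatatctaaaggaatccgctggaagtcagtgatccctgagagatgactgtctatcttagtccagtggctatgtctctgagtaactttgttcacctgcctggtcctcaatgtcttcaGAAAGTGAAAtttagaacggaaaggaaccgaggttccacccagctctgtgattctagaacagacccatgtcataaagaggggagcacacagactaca
H2-T22, chr17:36042743-36042992, minus strand: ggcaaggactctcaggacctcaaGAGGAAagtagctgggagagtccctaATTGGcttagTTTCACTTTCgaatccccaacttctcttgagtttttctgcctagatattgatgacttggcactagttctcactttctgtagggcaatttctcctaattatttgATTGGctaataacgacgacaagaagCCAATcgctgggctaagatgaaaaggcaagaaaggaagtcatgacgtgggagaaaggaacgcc
Tlr13, chrX:106143025-106143274, plus strand: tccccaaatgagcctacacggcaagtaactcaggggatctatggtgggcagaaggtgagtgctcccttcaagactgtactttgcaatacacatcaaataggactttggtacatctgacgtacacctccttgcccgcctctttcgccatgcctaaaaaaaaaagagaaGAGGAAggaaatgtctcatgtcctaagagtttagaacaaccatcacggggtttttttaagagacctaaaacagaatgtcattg
Ptprc, chr1:138175306-138175555, minus strand: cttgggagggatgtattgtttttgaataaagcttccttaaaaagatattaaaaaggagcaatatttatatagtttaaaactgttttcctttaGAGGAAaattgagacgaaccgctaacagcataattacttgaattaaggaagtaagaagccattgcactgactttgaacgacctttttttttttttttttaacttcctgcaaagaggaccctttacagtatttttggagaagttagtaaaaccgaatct
Each motif was searched on its own, so matches of different motifs may overlap. GAGGAA lay in at least 1 window of 20 of the 50 genes with a lead transcript higher in the cKO (40%), of 10 of the 33 lower (30.3%) and of 25.9% of all 27025 RefSeq genes. GAAANNGAAA lay in 3 of 50 (6%), 2 of 33 (6.06%) and 3.46%, and CCAAT in 30%, 33.3% and 37.5%. The cAMP response element TGACGTCA lay in 1 of the 50, in 0 of the 33 and in 1.77% of all genes. These shares are a description of letters, with no test.

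Library totals recovered from the FPKM values (reads scaled to transcript length and library total) were 17612367 to 19834986 reads. Listed transcripts made up 43.3% to 44.5% of a WT library and 24.4% to 25.5% of a cKO library. Counts are given as normalized counts, that is deposited expected counts divided by the authors' size factors, in the order WT replicates 1 and 2, then cKO replicates 1 and 2. A gene is described by its lead transcript, the listed one with the highest mean normalized count. A lack of reads is that of the transcript described, not of the gene, and transcripts the authors did not call were not seen. Fold changes are cKO over WT on the log2 scale, with the standard error (SE) of the fit. "Rose" and "fell" are used only where edgeR's quasi-likelihood test gave an adjusted p under 0.05 with the Benjamini-Hochberg correction over all 64840 transcripts the authors tested. Since the authors had called every listed transcript on these same libraries, these calls describe the selection further and are no independent evidence. The cells were not separated, so more cells of a type and more RNA per cell cannot be told apart.

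Of the 98 lead transcripts, 61 were higher in the cKO in both libraries and 37 were lower in both, and the genotypes overlapped in none of the 141 transcripts (77 higher, 64 lower). Of all listed transcripts, 33.1% (3736 of 11304) were higher and 66.9% (7566) were lower in both libraries. The share of member leads higher was 62.2%, against 36.2% of all listed lead transcripts. Of the 94 that could be tested, 25 rose and 24 fell (26.6% and 25.5%), where the background over all listed lead transcripts was 11.1% and 39.8%. The same background applies to the counts of each role group and gene list below. Over all 132 tested member transcripts, 26 rose and 39 fell, against a background of 10.4% and 41.4%. The median lead log2 fold change was 1.32, against -1.45 for all listed lead transcripts. The direction was read from these same libraries, so the sums below describe the grouping and show no separate difference in level. The summed FPKM of the lead transcripts that were higher went from 142 and 152 in the WT to 656 and 636 in the cKO, and that of the lower ones from 554 and 609 to 206 and 224. In the WT the most abundant lead transcripts were among those lower in the cKO, led by Stat4, Cd55b and Ifitm7.

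**Figure D1:**
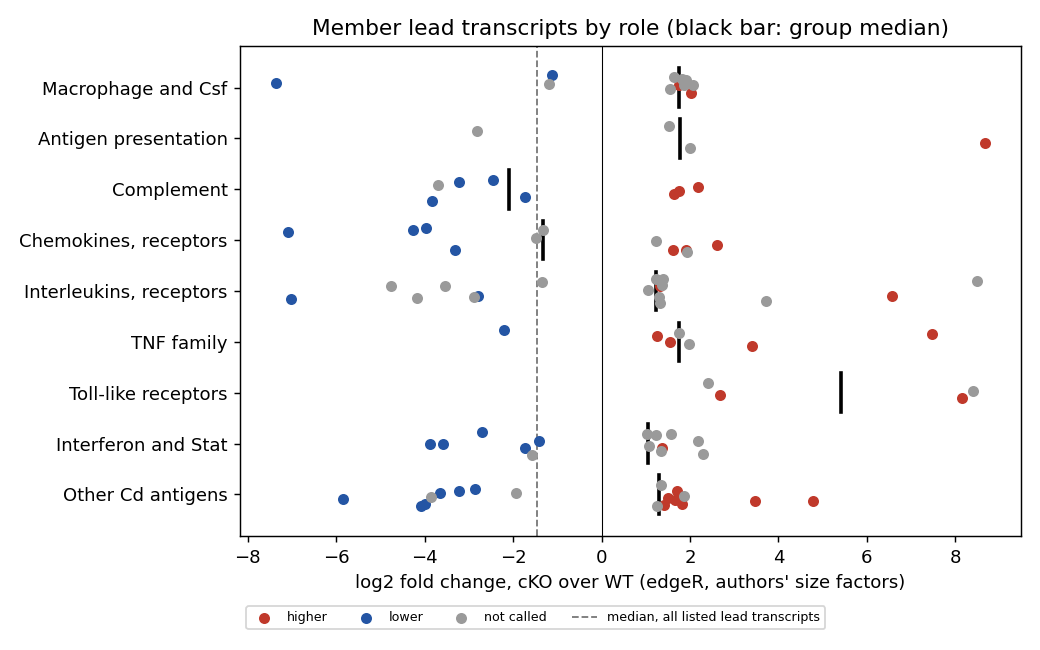
The log2 fold change (cKO over WT, x axis) of each tested member lead transcript, by role on the y axis, coloured by whether it rose, fell or did not pass the test. For lead transcripts with 0 reads in a genotype the fitted position depends on the prior count and is no bound. Black bars are group medians, positive in 7 of the 9 roles, and the dashed line is the median of all listed lead transcripts, -1.45; under TMM scaling the chemokine median turns positive (0.20), and under equal Sertoli counts the interleukin and interferon medians turn negative (-0.06 and -0.23).

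The split depends on the scaling, since all ratios move together. Against the authors' size factors, the median log2 fold change of all listed transcripts moved by 1.51 under TMM of the listed transcripts, by 0.53 under library totals and by -1.28 when the summed Sertoli cell transcripts were set equal. TMM and RLE assume that most transcripts are unchanged, but here they saw only called transcripts. The Sertoli sum takes the 21 listed of 30 markers, all higher in the cKO. A call kept under each scaling is thus a description and no independent check. The 25 genes that rose and 24 that fell became 56 and 4 under TMM and RLE (background 35.8% and 11.7% under TMM, 35.9% and 11.8% under RLE). They became 47 and 19 under library totals (29.2% and 27.7%) and 3 and 37 under equal Sertoli counts (2.79% and 63.6%). DESeq2 called 38 and 28 (21.2% and 51.9%), and glmTreat, which tests against a fold of 2, called 2 and 8 (2.35% and 18.2%). The genes called higher under every one of these scalings and RLE were H2-Eb1, Tlr3 and Tnfrsf19, and those called lower under every one were Stat4, Cd55, Cd109 and Fcgr2b. The listed transcripts of H2-Eb1, Tlr3 and Tnfrsf19 had 0 reads in both WT libraries, and that of Fcgr2b had 0 in both cKO libraries. A scaling leaves a 0 at 0, so the direction of these genes could not turn under any of them. Without either WT library edgeR called 0 of all the listed transcripts, so every call below rests on both; at an unadjusted p under 0.05 the leads were then 43 higher and 34 lower without WT replicate 1, and 49 and 30 without WT replicate 2 (77 of 97 and 79 of 96 in all, where 5556 of 7302 and 5575 of 7316 of all listed leads passed).

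**Figure D2:**
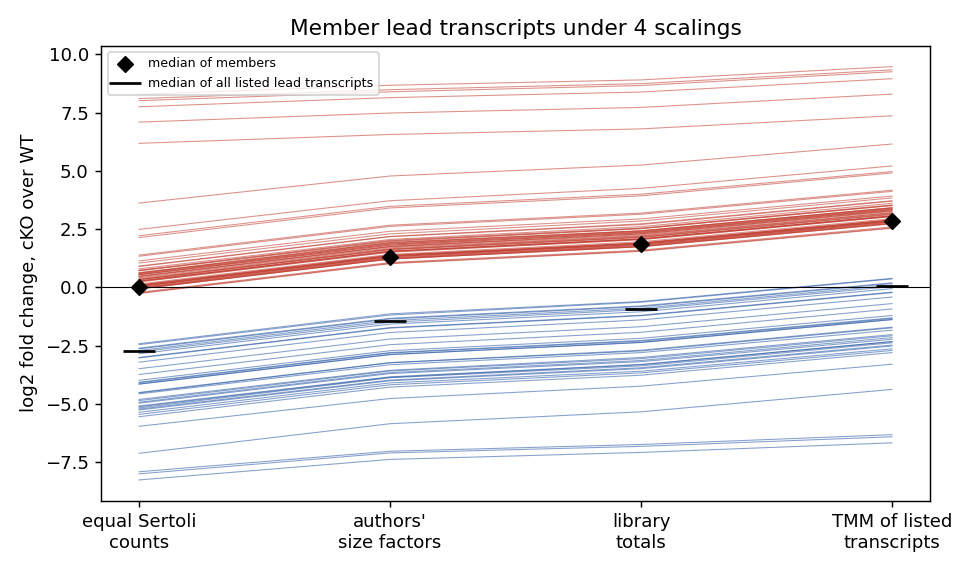
Each line joins the log2 fold changes (y axis) of one member lead transcript under 4 scalings (x axis), red where the mean count was higher in the cKO and blue where it was lower. Diamonds are the medians of the members, from 0.04 under equal Sertoli counts to 2.84 under TMM, and dashes those of all listed lead transcripts, from -2.73 to 0.07.

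Marker transcripts of other testis cells moved beside these genes. Of 30 Sertoli markers 21 were listed, all higher in the cKO, with summed normalized counts of 21585 to 23179 in the WT and 53927 to 54760 in the cKO. Of 14 Leydig markers 8 were listed, with sums of 6715 to 7480 and 26041 to 31385. Of these, 7 were higher, and Hsd17b3 was lower with 163 and 3.51 against 0 and 0. Of 12 endothelial and 8 peritubular myoid markers 2 each were listed, 1 higher and 1 lower in either list. Of 8 neutrophil markers Mpo alone was listed, with 29.4 and 52.7 against 3.23 and 7.2 (edgeR adjusted p = 0.0558). All 14 elongating and all 13 round spermatid markers were listed and lower, with sums of 268609 to 296528 and 43658 to 58018 in the WT and 9966 to 24948 and 5438 to 9297 in the cKO. The part of these cells in the results was not tested. Of the defining macrophage markers named by the rule, Adgre1, Mrc1, Cd14, Cd163, Cd74 and Tyrobp were not among the listed transcripts and were not analysed here.

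Among the colony-stimulating factor and macrophage genes (11), Lyz2 and Csf1r rose while Cd209c and Fcgr2b fell. Lyz2, the lysozyme of macrophages and neutrophils, had 215 and 269 normalized counts in the WT against 968 and 993 in the cKO, a log2 fold change of 2.02 ± 0.27 (SE; edgeR adjusted p = 0.0211). For Csf1r, the receptor of the macrophage growth factors Csf1 and Il34, the counts were 227 and 272 against 932 and 759, a change of 1.76 ± 0.28 (edgeR adjusted p = 0.0275). Both cKO libraries lay well above both WT libraries for these genes. The ligand Csf1 had 94.2 and 64.4 against 327 and 166, with a log2 fold change of 1.64 ± 0.47 that did not pass (edgeR adjusted p = 0.111), and a second, low Csf1 transcript had 0 reads in the WT and 2.42 and 71.2 counts in the cKO, nearly all of it from 1 library.

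Cd68, Ptprc, Fcer1g, Laptm5 and Fcgrt were higher in both cKO libraries without passing. The scavenger receptor Cd68 had 17.1 and 39.8 counts in the WT against 96.1 and 105 in the cKO, and the leukocyte phosphatase Ptprc (CD45) had 23.2 and 25.8 against 80.8 and 98.4. The Fc receptor chain Fcer1g had 23.2 and 9.37 against 61.4 and 62.4, and the lysosomal protein Laptm5 had 63.6 and 97.2 against 182 and 290. For Fcgrt, the neonatal Fc receptor, the counts were 33 and 58.6 against 237 and 147. Their log2 fold changes ran from 1.55 to 2.06, with edgeR adjusted p from 0.0619 to 0.127. With Lyz2, Csf1r and Csf1, the 8 higher genes of the group thus all had log2 fold changes between 1.55 and 2.06.

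The remaining genes of the group were more abundant in the WT. Cd209c, a C-type lectin of the DC-SIGN family, had 1316 and 1422 counts in the WT against 598 and 653 in the cKO (log2 fold change -1.13 ± 0.24, edgeR adjusted p = 0.0471), a sign that turned to 0.39 under TMM. The listed transcript of Fcgr2b, the inhibitory Fc receptor, had 18.3 and 21.1 counts in the WT and 0 reads in either cKO library. That is at least 16.3-fold lower when the bound is set at 3 reads over the group (edgeR adjusted p = 0.0278). Of 2 listed transcripts of the activating receptor Fcgr3, the lesser fell from 160 and 186 to 26.7 and 17.6 (-2.96 ± 0.43, edgeR adjusted p = 0.0238). The lead Fcgr3 transcript had 680 and 908 against 485 and 217 and did not pass (-1.18 ± 0.45, edgeR adjusted p = 0.254; 0.37 under TMM). Reads of Cd209 and Fcgr paralogs can be shared, so their split between genes is uncertain. In FPKM, which can be compared between genes, Cd209c and Fcgr3 were the highest of the group in the WT (46.1 and 31.5), against 9.89 for Lyz2 and 3.05 for Csf1r; in the cKO Lyz2 stood at 58.2.

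From a list of 38 other macrophage genes, 19 were listed, of which 8 rose and 1 fell; their median change was 1.78 on the log2 scale. The lead transcript of Itgam, the integrin chain CD11b, had 0 reads in the WT and 84 and 65.6 normalized counts in the cKO (edgeR adjusted p = 0.0212). Mertk, a receptor for engulfing dying cells, rose from 263 and 285 to 819 and 807 (1.57 ± 0.26, edgeR adjusted p = 0.0285). The only one to fall was a transcript of Aif1, the macrophage protein Iba1, from 3475 and 3022 to 151 and 243 (-4.04 ± 0.34, edgeR adjusted p = 0.0154). Msr1 was lower without passing, with 89.3 and 89 against 27.5 and 9.6 (-2.26 ± 0.61, edgeR adjusted p = 0.0931). Under equal Sertoli counts 1 of the 19 was called higher and 2 lower, and the Mertk change was 0.29.

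**Figure D3:**
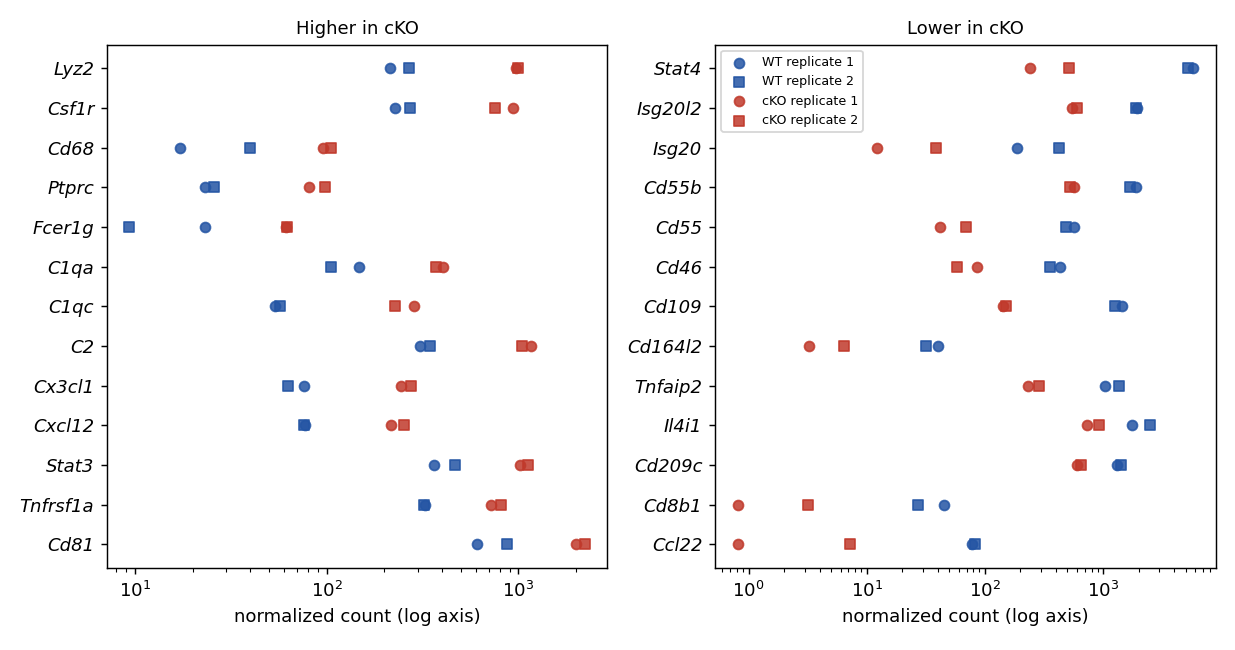
Normalized counts (x axis, log scale) of 26 member lead transcripts in each of the 4 libraries, 13 higher in the cKO on the left and 13 lower on the right; circles are replicate 1 and squares replicate 2. The genotypes are separate in every gene shown, with Stat4 spanning 240 to 5742 and Lyz2 215 to 993; the direction of Tnfrsf1a turns under equal Sertoli counts, and those of Cd209c and Il4i1 under TMM.

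Of the antigen presentation genes, 4 were listed and 1 rose. The listed transcript of H2-Eb1, a class II beta chain gene, had 0 reads in both WT libraries. In the cKO it had 37.2 and 60.8 normalized counts, at least 27.3-fold higher (edgeR adjusted p = 0.0271). The class II genes H2-Aa and H2-Ab1 were not among the listed transcripts, and class II protein was not measured. The class Ib genes H2-T22 and H2-T23 had 13.5 and 17.6 against 64.6 and 60, and 51.4 and 36.3 against 146 and 107, with log2 fold changes of 2.00 ± 0.47 and 1.53 ± 0.43 (edgeR adjusted p = 0.0647 and 0.103). Class I sequences are much alike, so reads may be divided among them uncertainly. The listed transcript of H2-DMa, whose protein helps load class II molecules, was not protein-coding, shared 42.2% of its exon bases with Brd2 on the other strand, and had 56.3 and 46.8 against 4.04 and 10.4 (-2.81 ± 0.62, edgeR adjusted p = 0.0538). Of 22 other antigen presentation genes 8 were listed, 6 tested, and 2 rose: the peptide transporter subunit Tap2, from 4.89 and 4.68 to 43.6 and 55.2 (3.34 ± 0.55, edgeR adjusted p = 0.0289), and Rfx5, a factor that binds class II promoters, from 23.2 and 26.9 to 141 and 120 (2.37 ± 0.42, edgeR adjusted p = 0.0326).

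Complement members split by role. The 3 classical pathway components among them rose, and 4 of the 5 membrane regulators among them, which protect cells from complement, fell. Outside the members, C1s1 was also listed and did not pass, with 204 and 403 against 999 and 690 (edgeR adjusted p = 0.107). C1qa and C1qc, chains of the recognition molecule C1q, went from 147 and 105 to 405 and 374 (1.63 ± 0.33, edgeR adjusted p = 0.0453) and from 53.8 and 57.4 to 284 and 226 (2.19 ± 0.35, edgeR adjusted p = 0.0273). C2, the protease of the C3 convertase, went from 306 and 346 to 1164 and 1049 (1.76 ± 0.26, edgeR adjusted p = 0.0234), though 62.7% of its exon bases are shared with the gene model Gm20547. All 3 were higher under each scaling, though none passed under equal Sertoli counts.

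The member regulators went the other way. Cd55, decay-accelerating factor, fell from 563 and 490 to 42 and 69.6 (-3.23 ± 0.39, edgeR adjusted p = 0.0186), and its paralog Cd55b from 1884 and 1695 to 566 and 521 (-1.72 ± 0.24, edgeR adjusted p = 0.0219). Cd46, a cofactor for cleaving C3b, fell from 435 and 353 to 85.6 and 58.4 (-2.45 ± 0.37, edgeR adjusted p = 0.025), and its 2 further listed transcripts fell as well. Cd59b, an inhibitor of the membrane attack complex, fell from 31.8 and 39.8 to 4.04 and 0.8 (-3.83 ± 0.75, edgeR adjusted p = 0.0415), with estimates from -5.28 to -3.11 without 1 of the cKO libraries. The Cd59a transcript, not protein-coding, had 79.5 and 67.9 against 0.808 and 10.4 and did not pass (edgeR adjusted p = 0.0759). Cd55b was also the most abundant regulator per length in the WT, at 72.8 FPKM against 10.2 for Cd55 and 2.92 for Cd46. Of 20 other complement genes 7 were listed, all higher, and 2 rose: the receptor C3ar1 (from 24.5 and 29.3 to 160 and 109, 2.32 ± 0.45, edgeR adjusted p = 0.0395) and the protease C1ra (from 191 and 219 to 527 and 528, 1.36 ± 0.28, edgeR adjusted p = 0.0459). Under equal Sertoli counts 2 of these 7 turned negative.

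Of 11 chemokine and receptor genes, 3 rose and 4 fell (27.3% and 36.4%), where 11.1% and 39.8% of all listed lead transcripts did. The ligands and receptors form pairs. Cx3cl1 (fractalkine) rose from 75.8 and 63.2 to 244 and 275 (1.90 ± 0.34, edgeR adjusted p = 0.0338). Its receptor Cx3cr1, a gene of resident macrophages, had 99.1 and 43.3 against 225 and 317, and its change of 1.93 ± 0.50 did not pass (edgeR adjusted p = 0.0841). Cxcl12, a ligand that in the testis is made by Sertoli cells, rose from 77.1 and 76.1 to 217 and 252 (1.61 ± 0.33, edgeR adjusted p = 0.0458). The receptor Cxcr4 had 47.7 and 57.4 against 126 and 118 (1.22 ± 0.38, edgeR adjusted p = 0.141). Ligand and receptor thus had the same sign in both pairs, except that Cxcr4 turned to -0.06 under equal Sertoli counts, and the test passed for the ligands and not for the receptors.

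Another ligand and its receptor fell together. Ccl22, a ligand of Ccr4, fell from 77.1 and 82 to 0.808 and 7.2 (-4.27 ± 0.84, edgeR adjusted p = 0.0416), with estimates from -6.41 to -3.44 without 1 of the cKO libraries. Ccr4 itself fell from 18.3 and 48 to 1.62 and 2.4 (-3.97 ± 0.78, edgeR adjusted p = 0.0416; -3.12 without WT replicate 2). The lymphocyte homing receptors Ccr6 and Ccr7 fell too, Ccr6 from 22 and 10.5 to 0 reads, at least 13.5-fold lower (edgeR adjusted p = 0.0414), and Ccr7 from 22 and 19.9 to 2.42 and 1.6 (-3.31 ± 0.59, edgeR adjusted p = 0.0337). The epithelial chemokines Ccl27a and Ccl28 were more abundant, with 344 and 488 against 141 and 192, and 204 and 232 against 89.7 and 65.6. Neither of these 2 leads passed (edgeR adjusted p = 0.0897 and 0.0666), and under TMM the Ccl27a change of -1.32 ± 0.35 turned to 0.20 and that of Ccl28 to 0.04. Of 8 dendritic cell markers, Ccr7 alone was listed.

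Among 18 interleukin and receptor genes, 2 rose and 2 fell. Il6st (gp130), the shared signalling chain of the interleukin-6 family, rose from 281 and 290 to 709 and 719 (1.32 ± 0.26, edgeR adjusted p = 0.0405). The specific receptor Il6ra had 45.3 and 32.8 against 103 and 102 (1.39 ± 0.42, edgeR adjusted p = 0.126). A transcript of Il17rb marked for nonsense-mediated decay rose from 0 reads to 10.5 and 12, at least 6.27-fold higher (edgeR adjusted p = 0.0446). Receptor chains made up the rest of the higher genes, among them Il1r1, Il10rb, Il13ra1, Il15ra and Il17ra, with log2 fold changes from 1.04 to 1.37 and edgeR adjusted p from 0.0785 to 0.168; under equal Sertoli counts Il10rb turned to -0.06 and Il1r1 to -0.24. The transcripts of Il10ra and Il17re had 0 reads in the WT and uneven counts in the cKO, 8.89 and 51.2, and 73.5 and 12.

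Il31 and Il11, the interleukins listed, were lower. Il31, a cytokine of T helper cells, had 3 listed transcripts, and 1 of these fell, from 84.4 and 87.8 to 2.42 and 10.4 (-3.72 ± 0.72, edgeR adjusted p = 0.0398). Its lead transcript had 59.9 and 196 against 7.27 and 14.4 (-3.55 ± 0.78, edgeR adjusted p = 0.0528). A transcript of its receptor Il31ra fell from 12.2 and 18.7 to 0 reads, at least 12.8-fold lower (edgeR adjusted p = 0.0344). Il11 had 36.7 and 107 against 4.04 and 15.2 and did not pass (edgeR adjusted p = 0.12). The listed Il1rap transcript, marked for nonsense-mediated decay, fell from 26.9 and 24.6 to 3.23 and 4 (-2.79 ± 0.54, edgeR adjusted p = 0.0397). Il4i1, an amino acid oxidase, was the most abundant of the group in the WT (46.1 FPKM), with 1745 and 2499 counts against 738 and 925. Its change of -1.35 ± 0.29 missed the threshold (edgeR adjusted p = 0.0512), turned to 0.17 under TMM, and 90.6% of its exon bases lie opposite Atf5 and Tbc1d17, whose reads cannot be told apart from it without strand.

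In the TNF family (8 genes), 4 receptors rose and Tnfaip2 fell. Tnfrsf1a, the main receptor of TNF, rose from 324 and 321 to 720 and 816 (1.25 ± 0.26, edgeR adjusted p = 0.0458), and Tnfrsf21 (death receptor 6) from 120 and 131 to 376 and 360 (1.55 ± 0.30, edgeR adjusted p = 0.041). Tnfrsf12a, the receptor of TWEAK, rose from 8.56 and 4.68 to 67.1 and 76 (3.41 ± 0.56, edgeR adjusted p = 0.0282). The listed transcript of Tnfrsf19 had 0 reads in the WT and 24.2 and 18.4 counts in the cKO, at least 11.9-fold higher (edgeR adjusted p = 0.0332). The change of Tnfrsf1a turned to -0.03 under equal Sertoli counts, while Tnfrsf12a and Tnfrsf21 stayed positive under each scaling. Tnfaip2, a gene induced by TNF, fell from 1046 and 1352 to 231 and 288 (-2.21 ± 0.29, edgeR adjusted p = 0.0205), and 2 of its 3 further transcripts fell.

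All 5 listed Toll-like receptors were higher in the cKO, at low mean levels of at most 1.17 FPKM, and Tlr3 and Tlr13 rose. The listed transcript of Tlr3, the endosomal sensor of double-stranded RNA, had 0 reads in the WT. In the cKO it had 35.5 and 32 normalized counts, at least 18.8-fold higher (edgeR adjusted p = 0.0266). Tlr13, which in mice senses bacterial ribosomal RNA, went from 12.2 and 9.37 to 63 and 75.2 (2.67 ± 0.50, edgeR adjusted p = 0.0364). Tlr2, a receptor of bacterial lipoproteins, had 6.12 and 7.03 against 39.6 and 31.2 (2.41 ± 0.53, edgeR adjusted p = 0.0542). The counts of Tlr8 came mostly from 1 library, with 0 reads in the WT against 71.1 and 9.6 in the cKO (edgeR adjusted p = 0.106), and those of Tlr5 likewise with 27.5 and 6.4. The median of the 4 tested, 5.40, falls to 3.45 with Tlr3 and Tlr8 at their lower bounds.

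Of 44 other genes of the Toll, TNF and NF-kB pathways 21 were listed and 18 tested, and 4 rose and 3 fell. Transcripts of the kinase complex subunits Ikbkg and Ikbkb had 0 reads in the WT against 84.8 and 62.4, and 80 and 57.6, in the cKO (edgeR adjusted p = 0.0219 and 0.0226). The adaptor Traf1 fell from 90.5 and 108 to 12.9 and 17.6 (-2.69 ± 0.47, edgeR adjusted p = 0.0318), and the kinase Ikbke from 15.9 and 11.7 to 0 reads (edgeR adjusted p = 0.0345). Genes of this pathway therefore had calls in both directions.

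Among the 14 interferon and Stat genes, Stat3 rose and 5 genes fell. These are 7.14% and 35.7%, near the 11.1% and 39.8% of all listed lead transcripts. Stat4, which carries interleukin-12 signals in T and NK cells, had the most abundant member lead transcript in the WT, at 101 FPKM, and stood at 9.91 in the cKO. It lies on chromosome 1 (51987148 to 52107189, GRCm38, plus strand). Its lead transcript, from the upstream of the 2 starts shown above, fell from 5742 and 5267 to 240 and 513 (-3.87 ± 0.44, edgeR adjusted p = 0.0173; -4.52 without cKO replicate 2). The transcript from the internal start fell from 4385 and 4215 to 395 and 502 (-3.26 ± 0.26, edgeR adjusted p = 0.0154). Transcripts from both starts were thus abundant in the WT and lower in the cKO, under every scaling. The gene model Gm28177 shares 38.8% and 34.6% of their exon bases.

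Stat3, the factor downstream of Il6st, went the other way, from 363 and 466 to 1016 and 1117 (1.36 ± 0.27, edgeR adjusted p = 0.0413). Stat6, which carries interleukin-4 signals, was higher without passing, with 143 and 183 against 311 and 447 (edgeR adjusted p = 0.109; -0.06 on the log2 scale under equal Sertoli counts). Irf8, which macrophages need to mature, had 163 and 148 against 303 and 487 (1.35 ± 0.36, edgeR adjusted p = 0.091). The double-stranded RNA sensor Ifih1 had 8.56 and 45.7 against 144 and 125 (edgeR adjusted p = 0.163).

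The exonuclease gene Isg20 had 3 listed transcripts, and all fell, the lead from 186 and 423 to 12.1 and 38.4 (-3.58 ± 0.72, edgeR adjusted p = 0.0434; between -4.64 and -2.87 without WT replicate 2 or 1 of the cKO libraries). Isg20l2, a related nucleolar exonuclease, fell from 1943 and 1889 to 550 and 598 (-1.74 ± 0.23, edgeR adjusted p = 0.0209). The Ifitm7 transcript, not protein-coding, fell from 389 and 395 to 136 and 157 (-1.42 ± 0.30, edgeR adjusted p = 0.0486), a sign that turned to 0.10 under TMM, and 46.8% of its exon bases lie opposite another gene. A retained-intron transcript of Ifi27 had 78.3 and 96 against 206 and 159 (1.07 ± 0.36, edgeR adjusted p = 0.174) and turned to -0.21 under equal Sertoli counts.

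From 25 other interferon-stimulated genes, 5 were listed. Xaf1 rose from 18.3 and 22.3 to 124 and 109 (2.51 ± 0.43, edgeR adjusted p = 0.0317) and the ubiquitin ligase Trim25 from 280 and 234 to 698 and 592 (1.33 ± 0.28, edgeR adjusted p = 0.0499). Gbp5, a guanylate-binding protein, fell from 208 and 237 to 26.7 and 10.4 (-3.58 ± 0.55, edgeR adjusted p = 0.0258). Of 29 other cytokine signalling genes 17 were listed and 15 tested, of which 4 rose and 2 fell. A transcript of the kinase Tyk2 went from 0 reads to 97.8 and 109 (edgeR adjusted p = 0.0189), and one of the feedback inhibitor Socs1 from 0 reads to 17.8 and 17.6 (edgeR adjusted p = 0.0341). Pias1 and Pias2, SUMO ligases that bind Stat proteins, fell from 1279 and 1547 to 406 and 493 (-1.65 ± 0.26, edgeR adjusted p = 0.0273) and from 5888 and 6285 to 1895 and 2570 (-1.45 ± 0.26, edgeR adjusted p = 0.0331), the latter turning to 0.07 under TMM.

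Of the 19 remaining Cd antigens, 7 rose and 6 fell. The tetraspanin genes Cd81 and Cd151 rose from 608 and 868 to 2003 and 2215 (1.51 ± 0.28, edgeR adjusted p = 0.0358) and from 232 and 317 to 772 and 702 (1.42 ± 0.29, edgeR adjusted p = 0.046). Cd63, a tetraspanin of lysosomes, had 2 listed transcripts, and both rose. Cd36, a fatty acid and lipoprotein receptor, rose from 174 and 145 to 477 and 561 (1.70 ± 0.30, edgeR adjusted p = 0.0331). Cd44, the hyaluronan receptor, rose from 1.22 and 0 to 18.6 and 20.8 (4.78 ± 0.91, edgeR adjusted p = 0.038; from 3.89 to 7.46 without 1 of the WT libraries), and a retained-intron transcript of Cd83 from 3.67 and 2.34 to 42 and 27.2 (3.48 ± 0.64, edgeR adjusted p = 0.036). Most of these proteins are made by many cell types, so their transcripts do not mark leukocytes. Cd81 reached 104 FPKM in the cKO, the highest level of any member lead transcript there.

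Cd96, Cd8b1, Cd3d and Cd247, antigens known from lymphocytes, were lower. Cd96, a receptor of T and NK cells, fell from 180 and 155 to 0 and 5.6 (-5.84 ± 0.99, edgeR adjusted p = 0.0303; from -10.34 to -4.87 without 1 of the cKO libraries). Cd8b1, a chain of the CD8 co-receptor, fell from 45.3 and 26.9 to 0.808 and 3.2 (-4.09 ± 0.76, edgeR adjusted p = 0.0367; from -5.27 to -3.44 likewise), and a retained-intron transcript of Cd3d from 28.1 and 39.8 to 2.42 and 1.6 (16.9-fold lower in the means, edgeR adjusted p = 0.0261). A transcript of Cd247 that is not protein-coding had 52.6 and 66.8 against 7.27 and 0.8 (edgeR adjusted p = 0.0561), and 44.6% of its exon bases lie opposite Pou2f1. These 3 T cell genes, Cd3d, Cd8b1 and Cd247, were the listed ones of 12 T cell markers, with sums of 126 to 134 normalized counts per WT library and 5.6 to 10.5 per cKO library. Of 8 B cell markers 2 were listed, with opposite signs: Pax5, a B cell transcription factor, fell from 497 and 558 to 41.2 and 86.4 (-3.04 ± 0.45, edgeR adjusted p = 0.0246), and Ighm, the IgM heavy chain, had 23.2 and 8.2 against 58.2 and 66.4 (1.98 ± 0.62, edgeR adjusted p = 0.137), a change called higher under TMM. Of 7 NK cell markers Eomes alone was listed, with 11 and 9.37 counts in the WT and 0 reads in the cKO.

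The antigens that fell also included some not named for lymphocytes. Cd109, a co-receptor that dampens TGF-beta signalling, fell from 1453 and 1263 to 142 and 150 (-3.22 ± 0.27, edgeR adjusted p = 0.0154), and the secreted macrophage protein gene Cd5l from 109 and 166 to 4.85 and 16.8 (-3.65 ± 0.69, edgeR adjusted p = 0.0376; from -4.79 to -3.02 without 1 of the cKO libraries). Cd164l2 fell from 40.4 and 31.6 to 3.23 and 6.4 (-2.87 ± 0.59, edgeR adjusted p = 0.0454). Unlike the tetraspanin genes Cd81, Cd151 and Cd63, the tetraspanin gene Cd37 was lower in the cKO and did not pass. Its log2 fold change in the authors' own fit was -1.86.

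Of the 28 member genes with more than 1 listed transcript, 25 had all of them on the same side, and Cd47, Il6st and Stat3 had transcripts on both. Cd47, the signal that restrains engulfment by macrophages, rose in its lead transcript (5250 bases) from 384 and 363 to 1508 and 854 (1.66 ± 0.35, edgeR adjusted p = 0.0485). A shorter protein-coding transcript of Cd47 (1032 bases) fell from 44 and 55 to 0 reads in the cKO, at least 41.1-fold lower (edgeR adjusted p = 0.0217). For Il6st the lead transcript rose, as given above, while one marked for nonsense-mediated decay fell from 68.5 and 46.8 to 0 reads, at least 47.8-fold lower (edgeR adjusted p = 0.022). In both genes the transcript lost from the cKO was a minor one beside a lead that increased. The retained-intron transcripts of Stat3 were at most 14.4 normalized counts in any library, one with 9.78 and 5.86 against 0 and 0 and another with 0 and 1.17 against 12.1 and 14.4. Transcripts of one gene share reads, so these expected counts rest on how the authors' tool divided them.

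**Figure D4:**
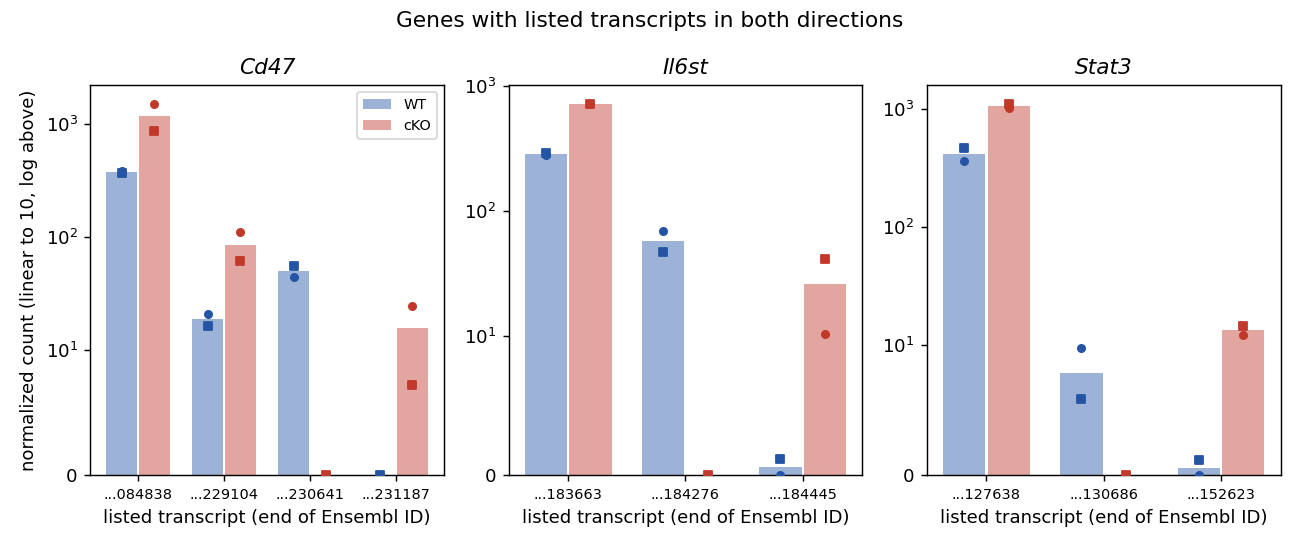
Normalized counts (y axis, linear to 10 and logarithmic above) of each listed transcript of Cd47, Il6st and Stat3 in the WT (blue) and cKO (red); bars are means of 2 libraries, circles replicate 1 and squares replicate 2. The lead transcripts were higher in the cKO, and 1 transcript of each gene had 0 reads there.

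The kinds of transcript differed between the directions. Of the 77 member transcripts higher in the cKO, 65 (84.4%) were protein-coding, against 72.2% of all listed transcripts that were higher, and of the 64 lower, 42 (65.6%), against 67.3%. The median length was 2847 bases among the higher and 1364 bases among the lower members, and 2882 and 1584 bases among all listed transcripts. Altogether 13 member transcripts had 0 reads in both WT libraries and 8 had 0 in both cKO libraries, and 10 shared at least 30% of their exon bases with another gene. Of the 404 protein-coding genes in GENCODE vM21 that the naming rule matches, 98 were listed (24.3%), against 31.6% of all protein-coding genes.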

How the data were processed

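RNA was sequenced from TruSeq libraries made of 1 ug total RNA, per the labels' protocols; strand is not stated. Per the file headers, the authors' table gives expected counts, FPKM, a mean normalized count (a signal over the 4 libraries), log2 fold changes with their SE, a test score and p-values per transcript; the per-sample files repeat the FPKM. The submitters' processing notes name mm9, but 98.5% of gene coordinates equal GRCm38, which is used here. Neither aligner nor counting tool is given in the sources used here. The table holds only transcripts with an adjusted p of at most 0.05 and at least a 2-fold change, so the spread was estimated on called transcripts.

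The authors' size factors (0.818, 0.854, 1.24 and 1.25) were recovered from the mean normalized counts, and library totals from the FPKM. Expected counts were rounded and tested with edgeR 4.0.16 (quasi-likelihood, genotype only, filterByExpr at 10 counts) on all listed transcripts, which kept 10716; those outside the table counted as having the largest p in the adjustment. The script was tested on simulated data. Libraries of a genotype were no duplicates (chi-square per degree of freedom 32.2 and 28.4). The labels do not say whether libraries came from separate animals, so p-values cover only the spread among these samples, which may be technical, and bounds from 3 reads cover counting error only. The members, roles and lists were chosen with earlier results of these data known. Named were genes whose lead passed, the 3 most abundant genes of each role, the strongest of the rarer direction, genes with transcripts on both sides and transcripts at 0 in a genotype with a mean of at least 20 in the other; of the other lists the 2 with the smallest p each way. Further members are named as examples. Some genes that this rule takes are not reported here.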

Additional observations from a re-analysis of the deposited data

How the results depend on the processing

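Member transcripts called higher and lower were 26 and 39 with the authors' size factors, 69 and 10 under TMM and RLE alike, 58 and 31 under library totals, and 3 and 62 under equal Sertoli counts. Over all listed transcripts the shares were 10.4% and 41.4%, then 32.4% and 12.3% (TMM), 32.5% and 12.4% (RLE), 26.1% and 29.8%, and 3.02% and 66.9%. With DESeq2 1.42.0 they were 41 and 49 (18.6% and 54.2% of all listed), with glmTreat at a fold of 2 they were 2 and 17 (2.62% and 19.4%), with no filter 24 and 29 (7.98% and 36.2%), and with 1 CPM in 2 libraries 23 and 29 (8.92% and 38.8%). For genes the calls were 25 and 24, then 56 and 4 under TMM and RLE, 47 and 19 under library totals, 3 and 37 under equal Sertoli counts, 38 and 28 with DESeq2, and 2 and 8 with glmTreat. The median lead log2 fold change of 1.32 became 2.84 under TMM, 2.88 under RLE, 1.85 under library totals and 0.04 under equal Sertoli counts. With 1 library left out, transcripts called higher ranged from 0 to 45 and lower from 0 to 53, and genes from 0 to 40 and from 0 to 31; all the zeros are without a WT library, when 0 of all listed transcripts were called. Of all listed transcripts 17.3% and 50.8% were called without cKO replicate 1 and 20.7% and 55.8% without cKO replicate 2, and of all leads 18.5% and 47.4%, and 22.4% and 52.8%. The lone library of a genotype is then assumed to vary like the other genotype.

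A fit with the replicate block, whose pairing the labels do not state, called 10 higher and 23 lower transcripts (6.5% and 36.5% of all listed). For genes it called 10 higher and 13 lower (7.59% and 37.2% of all listed leads). H2-Eb1, Tlr3 and Tnfrsf19, called higher under every scaling, were not called in this fit. Deviations of same-numbered libraries correlated at 0.2. Among the lead transcripts named by the fixed rule, signs turned for Tnfrsf1a (-0.03), Ifi27 (-0.21) and Il10rb (-0.06) under equal Sertoli counts and, under TMM and RLE, for Ccl27a (0.20 and 0.23), Ifitm7 (0.10 and 0.13), Il4i1 (0.17 and 0.20), Cd209c (0.39 and 0.42) and Fcgr3 (0.37 and 0.42). All these settings multiply a whole library by 1 factor. Of 52 named called transcripts, 9 moved by over 1.5 times without 1 library and 0 turned. Depth limits the transcripts near 0, where 3 reads over a group are 1.79 normalized counts in the WT and 1.21 in the cKO.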
